A study of Zea mays with 9 samples.

Results

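Zm00001d003861 is a maize gene that the supplementary gene lists of the study describe as a potassium transporter, and it was taken by its identifier as 1 gene of the 45260 identifiers in the table of the series. It was picked with its values in view, as a well expressed gene that was lower after nitrate, so its levels below are a description and carry no test. The study sequenced polyA RNA from primary root apexes of seedlings of the inbred line B73, with 3 biological replicates in each of 3 conditions, 9 libraries in all. All seedlings were germinated in the dark, and the methods of the study add that all of them passed through a pre-treatment without nitrogen before transfer to the final solution for 24 h. The control seedlings (-N) received no nitrogen in that solution, the nitrate seedlings (+NO3) received 1 mM KNO3 and the ammonium seedlings (+NH4) received 1 mM NH4Cl. Each replicate was a pool of seedlings, and an apex holds root cap, meristem and elongating tissue together, so that fewer cells of a type and less RNA per cell cannot be told apart. No marker list for root tissue was checked here. The table pairs no identifier with a gene name, and the lists of the study, which describe some genes, were not used for this. The deposited values are RPKM (reads per kilobase of transcript, scaled to library size), estimated by the authors as a single value per condition over its replicates, so no level given here has an error, and RPKM alone do not give the sequencing depth. The study ran its own tests across the replicates, which were not used here, and no difference below was compared with replicate scatter.

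Potassium is the main inorganic cation of plant cells, where it balances the charge of anions such as nitrate and drives the turgor by which root cells elongate. Roots take it up through channels and, at low external supply, through transporters, many of them of the KT/HAK/KUP family, which in Arabidopsis includes HAK5, a gene that responds to potassium starvation. Ammonium is a cation of similar size, and in Arabidopsis and barley it competes with potassium for uptake by transporters of this family. The files do not state to which family or membrane Zm00001d003861 belongs, and neither its position in the AGPv4 assembly nor its sequence was analysed here.

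Zm00001d003861 was highest without nitrogen and lowest after nitrate. Its level was 57.8 RPKM in -N, 55.7 RPKM after ammonium and 21.2 RPKM after nitrate. The order of the conditions was therefore -N, ammonium and nitrate, with the first and second close together and nitrate far below. The levels in -N and after ammonium differed by 3.69% of the -N level, and whether these neighbours in the order differ beyond their spread cannot be said from a single value each. The nitrate level was 36.7% of that in -N.

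**Figure D1:**
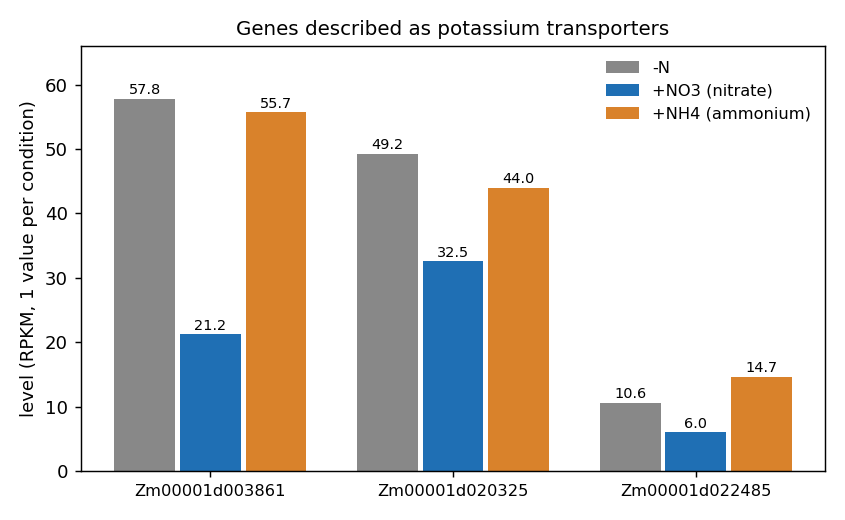
Level in RPKM (vertical axis, from 0) of Zm00001d003861 and of the other two genes described as potassium transporters in -N, after nitrate and after ammonium; each bar is the single deposited value of a condition, so there is no error bar. Zm00001d003861 stood at 57.8, 21.2 and 55.7 RPKM in that order, and the nitrate bar was the lowest for each of the 3 genes.

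The gene was well expressed in all conditions. In -N it ranked 2743 from the top, within the upper 13.5% of the 20324 identifiers listed at 1 RPKM or more, whose median level was 12.5 RPKM. After ammonium it ranked 3000 (upper 14.4% of 20848), and after nitrate it ranked 7105 (upper 34.1% of 20852). Even at its lowest it was thus above the median of the identifiers at 1 RPKM or more, which was 12.4 RPKM after nitrate and 12.8 RPKM after ammonium. Of every 1000000 RPKM summed over all identifiers of a condition, it made up 65.3 in -N, 59.9 after ammonium and 23.2 after nitrate.

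The first comparison asks how nitrate supply to nitrogen-deprived roots relates to the level of this gene. From -N to nitrate, Zm00001d003861 was lower by 36.6 RPKM, a log2 ratio of -1.44 or a 2.72-fold lower level. For scale, a log2 ratio beyond 0.58, the fold threshold of the study (about 1.5-fold) without its false discovery rate, was reached downwards by 5.46% and upwards by 11.9% of the 21290 identifiers that reached 1 RPKM in either of these conditions. The median log2 ratio of these identifiers was 0.04, and their quartiles were -0.15 and 0.28. Zm00001d003861 was at position 298 from the lowest ratio, in the lowest 1.40%. The gene was picked with this contrast in view, so its position here and in the next paragraph describes the values that chose it and supports nothing.

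When only the 11233 Zm00001d genes with at least 10 RPKM in -N and above 0 in all conditions were ranked, Zm00001d003861 was at position 45. The gene directly above it in that order, Zm00001d051388, had a log2 ratio of -1.47 (18.3 RPKM in -N and 6.61 after nitrate). The gene directly below, Zm00001d049204, had -1.41 (28.9 and 10.9 RPKM). Neither has a description in the sources used here, and Zm00001d003861 started from a higher level than both.

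**Figure D2:**
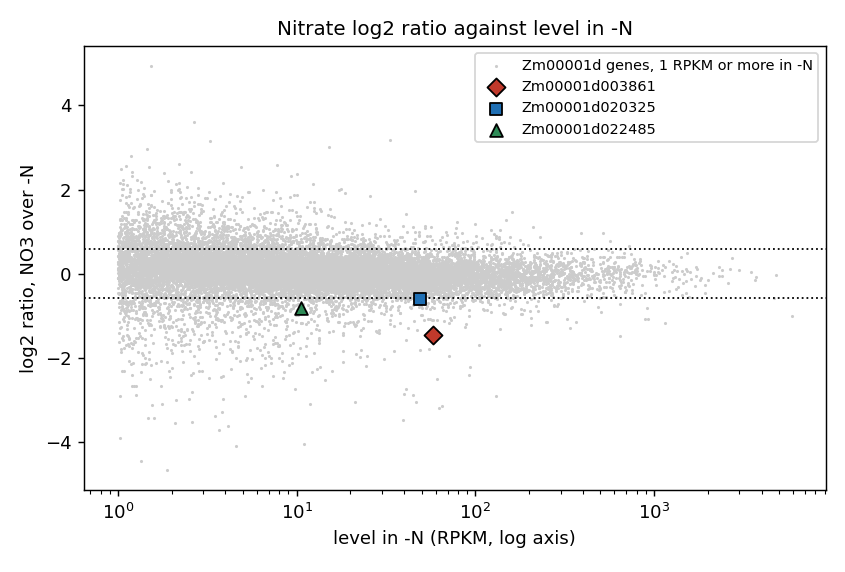
Log2 ratio of the nitrate to the -N level (vertical axis) against the level in -N (RPKM, log axis) for Zm00001d genes at 1 RPKM or more in -N and above 0 after nitrate, 1 grey point per gene, with the 3 potassium transporter genes marked and dotted lines at a log2 ratio of 0.58 in either direction. Zm00001d003861, at 57.8 RPKM and -1.44, lies below the lower dotted line, while Zm00001d020325 lies at the dotted line.

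The second comparison asks the same of ammonium. The ammonium level of Zm00001d003861 was lower than that in -N by 2.13 RPKM, a log2 ratio of -0.05, far from the threshold of 0.58. Downward ratios beyond that threshold were found for 11.3% and upward ones for 19.6% of the 21373 identifiers that reached 1 RPKM in -N or with ammonium. The median of all these ratios was 0.02, with quartiles of -0.32 and 0.44, so Zm00001d003861 lay near the middle, at position 9433 from the lowest. The study listed this gene as lowered specifically by nitrate and grouped genes lowered by both nitrogen forms apart. The lack of a marked fall after ammonium therefore follows in part from that choice. The ratios to nitrate and to ammonium share the -N value, and a deviation of that value would move both in the same direction.

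The third comparison sets the treatments against each other without -N. Zm00001d003861 was 2.62-fold lower after nitrate than after ammonium, by 34.4 RPKM or a log2 ratio of -1.39. A ratio below -0.58 in this comparison was found for 15.5% of 21660 identifiers, and Zm00001d003861 was at position 992 from the lowest (4.58%). Among the Zm00001d genes that reached 10 RPKM in -N it was at position 215 of 11233. The difference between the treatments was thus of nearly the same size as that between nitrate and -N, but more identifiers showed one as large. Both ratios rest on the same nitrate value, and a deviation of that value would move them in the same direction. The gene was picked as low in that value, so its positions in this comparison also describe the choice and support nothing. Nitrate was supplied as the potassium salt and ammonium as the chloride, as the labels give it, and the potassium content of the 3 solutions is not given in the sources used here. Unless the solutions were balanced for potassium, nitrate supply and added potassium go together in these groups and cannot be told apart for the level of this gene.

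**Figure D3:**
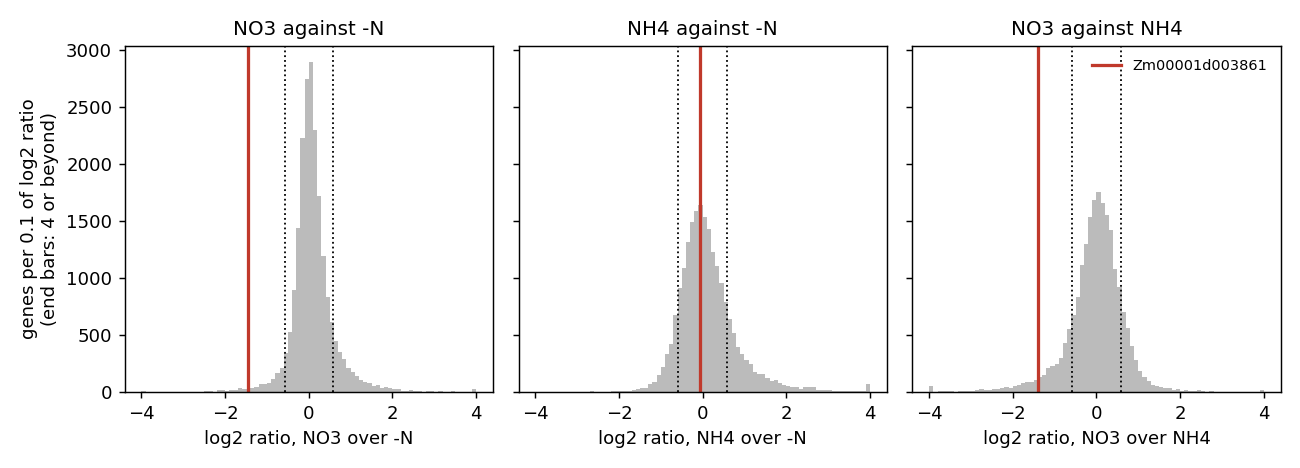
Number of identifiers (vertical axis) by log2 ratio (horizontal axis, bins of 0.1, ratios of 4 or beyond gathered in the end bars) for nitrate against -N, ammonium against -N and nitrate against ammonium; identifiers at 0 in either condition are not drawn, the dotted lines mark 0.58 in either direction, and the red line marks Zm00001d003861. The red line stands at -1.44 in the left tail of the first panel, at -0.05 near the middle of the second and at -1.39 in the left tail of the third.

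Besides Zm00001d003861, the lists of the study describe 2 genes as potassium transporters, Zm00001d020325 and Zm00001d022485. The study chose both on these same libraries as lower after nitrate, so their direction is not independent evidence. Zm00001d020325 had 49.2 RPKM in -N, 32.5 RPKM after nitrate and 44.0 RPKM after ammonium. Its log2 ratio was -0.60 for nitrate, just past the threshold, and -0.16 for ammonium. Zm00001d022485 had 10.6 RPKM in -N, 6.02 RPKM after nitrate and 14.7 RPKM after ammonium. Its log2 ratio was -0.82 for nitrate and 0.47 for ammonium. All 3 genes were therefore lowest after nitrate, and Zm00001d003861 had the lowest nitrate ratio of them. Set directly against ammonium, the nitrate level was lower by a log2 ratio of -0.43 for Zm00001d020325 and -1.28 for Zm00001d022485, the second of which is close to the -1.39 of Zm00001d003861.

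RPKM values are per transcript length, so the levels of these genes can be compared with each other. In -N Zm00001d003861 was the highest of the 3, at 1.17 times the level of Zm00001d020325 and 5.45 times that of Zm00001d022485. After ammonium it was again the highest, at 1.27 times and 3.80 times their levels. After nitrate the order differed, and Zm00001d020325 stood at 1.53 times the level of Zm00001d003861. The summed level of the 3 genes was 117.6 RPKM in -N, 114.3 RPKM after ammonium and 59.8 RPKM after nitrate, and Zm00001d003861 made up 49.1%, 48.7% and 35.5% of these sums. It accounted for 63.2% of the 57.8 RPKM by which the sum was lower after nitrate than in -N. All 3 genes were chosen with their nitrate levels in view. This share, the order after nitrate and the lowest ratio of Zm00001d003861 therefore follow in part from that choice. Because the authors' correction divides reads that map to several places among similar genes, a share of reads may be exchanged between related transporter genes, and the size of such an exchange is not known from the table. Further maize genes for potassium transporters and channels were not analysed here.

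The study lists Zm00001d003861 under cation transmembrane transport, among 9 genes of which 3 are the potassium transporters above. The other 6 were all lower after nitrate by the fold threshold (5.46% of all identifiers were). After ammonium none was lower (11.3% of all identifiers were) and 2 were higher (19.6% of all identifiers were). Their median log2 ratio was -1.03 for nitrate, beside 0.04 for all identifiers, and 0.41 for ammonium, beside 0.02. These genes were selected by the study from the same libraries as lowered specifically by nitrate, and genes lowered by both nitrogen forms were grouped apart. The nitrate count and the lack of genes lower after ammonium therefore follow from the selection, and the ammonium median is not independent of it. Closest to Zm00001d003861 was the ammonium transporter gene Zm00001d034782, with 8.57 RPKM in -N, 2.95 RPKM after nitrate and 8.49 RPKM after ammonium. Its log2 ratios of -1.54 and -0.01 are near the -1.44 and -0.05 of the potassium transporter gene, at a level several times lower.

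The other genes of that list described as ammonium transporters also had nitrate ratios below -1. Zm00001d025831 had 8.72 RPKM in -N, 3.91 RPKM after nitrate and 19.4 RPKM after ammonium (log2 ratios of -1.16 and 1.16). Zm00001d017249 had 2.81, 0.645 and 3.23 RPKM in the same order of conditions (-2.12 and 0.20). Both genes had their highest level after ammonium, where Zm00001d003861 was slightly below its -N level.

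The plasma membrane ATPase gene Zm00001d002006 encodes a proton pump of the kind that sets up the gradient which drives potassium and other ions into the cell. It had 506.2 RPKM in -N, 271.9 RPKM after nitrate and 718.1 RPKM after ammonium, with log2 ratios of -0.90 and 0.50. The calcium-transporting ATPase gene Zm00001d023258 stood at 13.7, 9.10 and 17.0 RPKM in these conditions, and its nitrate log2 ratio of -0.59 was just past the threshold. Zm00001d018799, described only as a serine/threonine protein kinase, had 109.5, 69.0 and 186.5 RPKM. These 3 genes were at their lowest after nitrate, as Zm00001d003861 was, but at their highest after ammonium, where Zm00001d003861 was close to its -N level.

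The lists hold 4 further transporter genes for nitrogen compounds. By the fold threshold, 1 was lower and 1 higher after nitrate (5.46% and 11.9% of all identifiers were), and 3 were higher after ammonium (19.6% of all identifiers were). The study listed these genes as changed by at least 1 treatment in the same libraries. The counts therefore follow in part from that choice and cannot be read against the shares of all identifiers. The lower gene, Zm00001d037242, encodes the urea-proton symporter DUR3 and had 0.666 RPKM in -N, 0.144 RPKM after nitrate and 1.08 RPKM after ammonium. Like the ATPase genes, it was lowest after nitrate and highest after ammonium. Its nitrate ratio of -2.21 rests on values under 1 RPKM, below the minimum used for the share of all identifiers. The nitrate transporter gene ZmNRT1a (Zm00001d029932), at 17.8 RPKM in -N, had 27.4 RPKM after nitrate and 22.7 RPKM after ammonium, so its nitrate ratio of 0.62 had the opposite sign to that of the potassium transporter gene. For ZmNRT1b (Zm00001d036941) the log2 ratios were 0.30 and 1.56. The ammonium transporter gene Zm00001d016771, with 3.90 RPKM in -N and 4.32 RPKM after nitrate, had a log2 ratio of 0.15 for nitrate and 1.25 for ammonium.

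Calcineurin B-like proteins (CBL) are calcium sensors that bind CBL-interacting protein kinases (CIPK), and in Arabidopsis such pairs activate potassium uptake proteins at the plasma membrane. The lists of the study describe 4 such genes, all chosen by the study as higher after ammonium or after both nitrogen sources. By the fold threshold, none was lower after nitrate (5.46% of all identifiers were), 2 were higher (11.9%), and all 4 were higher after ammonium (19.6%). All of these counts follow at least in part from how the study chose the genes. They cannot be read against the shares of all identifiers. Calcineurin B-like 5 (Zm00001d044389) had 25.7 RPKM in -N, 22.5 RPKM after nitrate and 144.2 RPKM after ammonium (log2 ratios of -0.19 and 2.49). Calcineurin B-like 10 (Zm00001d044285) had 44.0 RPKM after nitrate and 65.2 RPKM after ammonium (log2 ratios of 0.55 and 1.12). The kinase genes Zm00001d043389 (CIPK 18) and Zm00001d048460 (CIPK 9) had nitrate log2 ratios of 0.68 and 0.69 and were at 23.7 and 11.9 RPKM after ammonium.

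**Figure D4:**
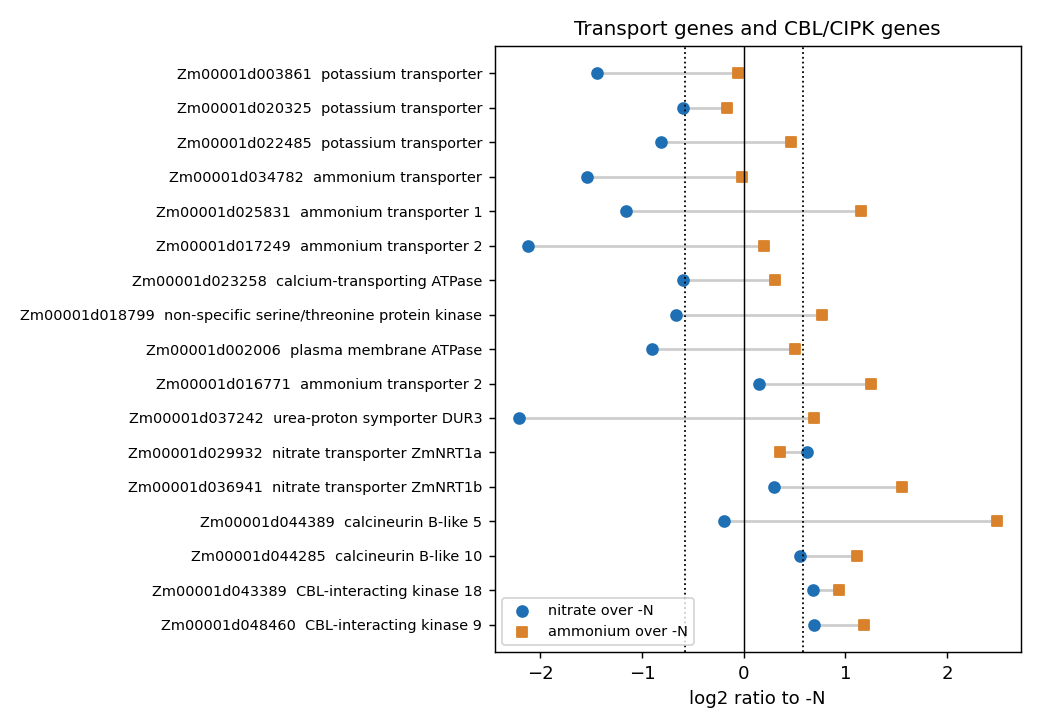
Log2 ratio to -N (horizontal axis) after nitrate (circles) and after ammonium (squares) for Zm00001d003861 in the top row and the 16 other transport and CBL/CIPK genes below it, 1 row per gene, with dotted lines at 0.58 in either direction. The circle of Zm00001d003861 stands at -1.44 and its square at -0.05; the 8 genes in the next rows have circles left of the lower dotted line, and all 4 CBL/CIPK genes at the bottom have squares beyond 0.58.

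To find the genes with the most similar pattern, the distance between genes was measured in the plane of the nitrate and the ammonium log2 ratio, over the 3 conditions, among the 11233 Zm00001d genes with at least 10 RPKM in -N. Within a distance of 0.2 there were 8 genes and within 0.5 there were 42, of 11232 other genes. The nearest was Zm00001d021700 at a distance of 0.06, with 15.1 RPKM in -N, 5.74 RPKM after nitrate and 14.9 RPKM after ammonium. Zm00001d022282 followed at 0.08 and resembled Zm00001d003861 in level as well, with 57.5, 22.3 and 55.7 RPKM in the same order. Next were Zm00001d041660 (0.12), Zm00001d051388 (0.16) and Zm00001d017247 (0.17). None of these 5 genes has a description in the sources used here.

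Of the 249 genes with a description in the lists of the study, 123 were among those at 10 RPKM or more in -N. The nearest to Zm00001d003861 was Zm00001d046493, a heme oxygenase gene, whose product opens the ring of heme. It was the 18th in distance, with 12.6 RPKM in -N, 5.81 RPKM after nitrate and 13.2 RPKM after ammonium. Next was Zm00001d017077 (red aleurone1), which encodes a flavonoid 3'-hydroxylase of pigment synthesis and had 10.6, 4.71 and 8.57 RPKM. The next was Zm00001d024763, described as an N-benzoyltransferase, with 142.2, 75.1 and 137.2 RPKM. No transporter gene was among these 3, since Zm00001d034782, with its similar ratios, was below 10 RPKM in -N.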

How the data were processed

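Poly(A) RNA of 9 libraries, 3 per condition, was sequenced by the authors. According to the submitters' processing notes and the methods of the study, reads were called with CASAVA 1.8, trimmed with Trimmomatic 0.33, mapped with TopHat2 2.0.13 to B73 RefGen_v4 (AGPv4) and, after removal of reads with many positions, passed to Cuffdiff of Cufflinks 2.2.1 with correction for multi-mapped reads and quartile normalization. The deposited RPKM are the authors' values, 1 per gene and condition over the replicates, already normalized for transcript length and library size. The table holds no value per replicate and no depth, so no test, SD or interval was computed.

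Log2 ratios were computed without a pseudocount for identifiers with at least 1 RPKM in at least 1 of the 2 conditions compared, and ratios beyond 0.58 were counted. An identifier at 0 in a single condition was counted by its direction. Gene descriptions came from the supplementary lists of the study. The RefSeq gene table used here held 0 rows with a Zm00001d identifier, so names, positions and sequences were not analysed here. Named genes were Zm00001d003861, the potassium, cation and nitrogen transport and CBL/CIPK genes of those lists, the 5 nearest genes and the 3 nearest described genes by Euclidean distance of the 2 log2 ratios to -N, and the genes next in rank. The gene and the lists were chosen with earlier results of these data known. The counting was tested on simulated data. Python 3.11.15, numpy 2.4.6, pandas 2.3.3 and matplotlib 3.10.9 were used.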

Additional observations from a re-analysis of the deposited data

How the results depend on the processing

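The log2 ratios of Zm00001d003861 kept their direction and their side of the 0.58 threshold under pseudocounts of 0.1 and 1 RPKM and under scaling to a median ratio of 0, to the same total and to the same upper quartile. They ranged from -1.49 to -1.40 for nitrate against -N, from -0.13 to -0.05 for ammonium against -N and from -1.42 to -1.33 for nitrate against ammonium. Its position from the lowest nitrate ratio, 298, was 2134 with no filter and 69 with a minimum of 10 RPKM, settings that change how many identifiers are ranked, and 139 with a pseudocount of 1 RPKM, which by its construction shrinks the ratios of identifiers of low level. The number of identifiers lower after nitrate than in -N (1163) was 3931 with no filter, 428 with a minimum of 10 RPKM and 541 with the log2 ratio beyond 1. For ammonium against -N (2420) the numbers were 5432, 1244 and 591, and for nitrate against ammonium (3354) they were 6822, 1794 and 1706. Of 170 log2 ratios recomputed for the other named genes, 165 stayed on their side of the threshold. The exceptions were the nitrate ratio of Zm00001d023258 (-0.54 with a pseudocount of 1 RPKM), the ratios of Zm00001d037242 (-0.54 for nitrate and 0.32 for ammonium with that pseudocount) and the nitrate ratio of Zm00001d029932, which was just under 0.58 with the median ratio at 0 and with the same total. No paired analysis was possible because the table holds 1 value per condition, and for the same reason no replicate could be left out. The spread between replicates and the depth behind each value limit every statement on a size.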
